A study of Mus musculus with 15 samples.

Results

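Dppa2, Dppa3, Dppa4, Dppa5a and Tex19.1 are 5 genes active in pluripotent cells and in the germline. They were taken by name from a table of 26061 genes and made up 5 of the 19490 genes that were tested, and all 5 passed the filter on low values. The RNA came from E14 cells, a mouse embryonic stem cell (ESC) line kept without feeders in 15% serum with LIF at 1000 U/ml. All cells had been infected with a lentivirus that carried a short hairpin RNA and had spent 3 days under puromycin. The hairpin matched no gene (shScr, 5 libraries), Tet1 (shTet1, 5 libraries) or Tet2 (shTet2, 5 libraries), with a single hairpin for each target, so an effect of the hairpin and an effect of losing its target cannot be told apart. Total RNA was depleted of ribosomal RNA before sequencing.

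TET enzymes oxidise methylated cytosine in DNA, and the promoters of several genes of this kind are known to be silenced by DNA methylation in somatic cells. Dppa2 and Dppa4 are chromatin proteins with a SAP domain that act as a pair, while Dppa3 (also called Stella) binds UHRF1, the partner of the maintenance methyltransferase DNMT1, and shields maternal DNA methylation in the zygote. Dppa5a (also called ESG1) belongs to a family of RNA-binding KH domain proteins, and Tex19.1 is a mammal-specific germline protein that binds the ubiquitin ligase UBR2 and restrains retrotransposons.

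Across the 5 genes, the difference that passed the test against shScr was that of Dppa3, which was higher in shTet2. Dppa3 was also higher in all 5 shTet1 libraries than in the shScr library of the same number, but passed the test in that comparison only where replicate number or another covariate entered the fit. Dppa5a was highest in shTet1 and Tex19.1 was lowest in shTet2, and neither passed the test without a covariate, while Dppa5a passed it between the knockdowns with replicate number in the fit. The levels of Dppa2 and Dppa4 differed more between replicates than between hairpins.

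All 5 genes lay on the assembled genome without an exon of another gene across theirs (mm9 build, GENCODE annotation). Dppa4 (chr16:48283848-48294405, plus strand) and Dppa2 (chr16:48310590-48319836, plus strand) were neighbours 16185 bases apart. Dppa3 (chr6:122576428-122580290, plus strand) lay 16323 bases from Gdf3 and 77217 bases from Nanog. Dppa5a (chr9:78214859-78215984, minus strand) lay 120456 bases from its near-copy Dppa5b, and Tex19.1 (chr11:121007457-121009633, plus strand) lay 27466 bases from its paralogue Tex19.2.

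Because TET enzymes act on methylated CpG sites, the CpG content just before each gene was counted, though no methylation was measured in these libraries. The motif searched was CG, which reads the same on both strands. In the 250 bases before the annotated start, Dppa4 held 3 CpGs, Dppa2 4, Dppa3 6, Dppa5a 9 and Tex19.1 15. The median over 22375 protein-coding genes was 8, so Dppa4, Dppa2 and Dppa3 lay below it and Dppa5a and Tex19.1 above. Of those genes, 24.6% held fewer CpGs than Dppa4, 50.4% fewer than Dppa5a, which lay close to the median, and 67.1% fewer than Tex19.1. For each gene, the 30 bases richest in CpG before it were taken, or the nearest to its start where stretches tied. They are shown on the strand of the gene, 5′ to 3′, with each CG in capitals. They span chr16:48283815-48283844 (Dppa4), chr16:48310560-48310589 (Dppa2), chr6:122576274-122576303 (Dppa3), chr9:78215995-78216024 (Dppa5a) and chr11:121007287-121007316 (Tex19.1).
Dppa4: CGgaagagggcctcaagacaacaggaagta
Dppa2: ataaaagaagtCGgcattcattcagCGgct
Dppa3: CGcagggttagttttaacCGagagCGggga
Dppa5a: CGtggtctagtaaaacacCGcccacacagg
Tex19.1: CGcatgCGCGctgtagggggCGccaggcCG
The stretch before Tex19.1 held 5 CpGs in 30 bases, that before Dppa3 held 3, those before Dppa2 and Dppa5a held 2 each, and that before Dppa4 held 1.

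Values are given on the scale deposited, a variance-stabilised log2 scale on which a gene without reads stands at 4.25, the minimum of the table. The targeted genes were lower in their own groups, with Tet1 at 11.93 to 12.41 in shTet1 against 13.68 to 14.25 in shScr, and Tet2 at 11.12 to 11.61 in shTet2 against 13.15 to 13.52 in shScr. Libraries held between 15258291 and 35432425 reads in genes. In 4 libraries (shScr replicate 4, shTet1 replicates 3 and 4, shTet2 replicate 4), genes for smell and pheromone receptors, a group of 1439 without a known role in ESCs, took 53.3 to 63.4 reads per 1000000 gene reads, against 9.43 to 26.3 in the other 11. All 8 markers of ESCs were found, with summed levels of 66097 to 86816 normalised reads over the 15 libraries, against 421 to 1492 for 8 fibroblast markers. The samples were bulk RNA, so fewer cells that express a gene and less of its RNA per cell cannot be told apart.

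Per length of exon, Dppa5a was the highest of the 5 genes in every group, with 18719 ± 2434 normalised reads per kilobase in shScr (SD, n = 5). Dppa4 (1476 ± 525) and Dppa2 (1426 ± 264) came next, and their ranges overlapped. Tex19.1 (514 ± 177) and Dppa3 (428 ± 225) were the lowest pair in shScr, also with overlapping ranges. The order of these last members differed by group on the same scale. In shTet2, Dppa3 stood at 1144 ± 345 normalised reads per kilobase and Tex19.1 at 331 ± 79.3, and no shTet2 library overlapped between the genes. In shTet1, Dppa3 stood at 883 ± 241 and Tex19.1 at 409 ± 157, with overlapping ranges.

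**Figure D1:**
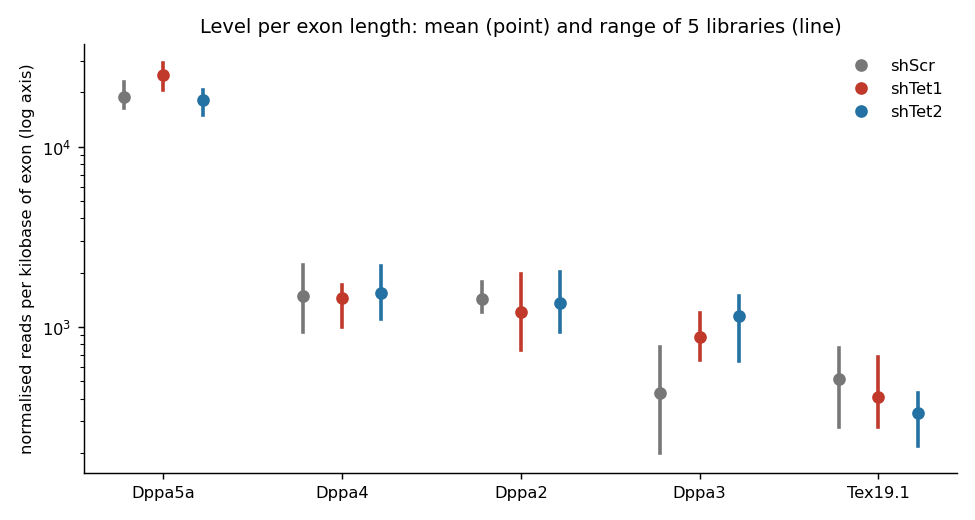
Normalised reads per kilobase of exon (log axis) for the 5 genes in shScr, shTet1 and shTet2; points are means and lines span the lowest to the highest of 5 libraries. Dppa5a lies above the others in each group, and the range of Dppa3 clears that of Tex19.1 in shTet2.

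Reads that match more than 1 place could reach the members unevenly, since the study kept a read with several matches at a single place. Of all 50-base stretches in their transcripts, 63.3% occurred elsewhere in the genome for Dppa5a, 55.3% for Dppa2, 43.8% for Dppa4, 23.4% for Dppa3 and 2.67% for Tex19.1. The values of Dppa5a, Dppa2 and Dppa4 are therefore the least certain, and those of Tex19.1 share almost nothing with its paralogue. Of the copies that share at least 5% of a member's stretches, those with a row of their own in the table were Gm5501, a copy of Dppa4, and Dppa5b. Other copies had no row, and reads placed on them are not counted here. Gm9788 shared 52.7% of the stretches of Dppa2, and Gm6269 22.9% of those of Dppa3. Gm14058 shared 27.5% of those of Dppa4, more than Gm5501 (21.0%). A place on chromosome 9 without annotation shared 45.3% of those of Dppa5a, the same share as Dppa5b. Dppa4 held 76.0% to 83.5% of the reads of its pair in each library, and Dppa5a held 82.5% to 89.8%.

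The coding sequences of Dppa5a and Dppa5b were 357 bases each and differed at 9 positions (97.5% identity), and the longest stretch without a difference was 158 bases, longer than a read. The stretch with most differences spans coding positions 224 to 253, counted from the first base of the start codon. Its 5 differing bases are in capitals, and a read that covers any of the 9 can tell the genes apart.
Dppa5a: CtcaaaAcaAcaagAttcgggctaaatggA
Dppa5b: AtcaaaGcaTcaagGttcgggctaaatggT
The other 4 differences lay outside this window.

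Comparisons were made by limma over all genes, with Benjamini-Hochberg adjustment and a call at an adjusted p under 0.05. In shTet1 against shScr, 0 of the 5 genes were called, beside 0.0718% of all genes tested (0.0462% higher and 0.0257% lower). At an unadjusted p under 0.05 there were 2 of 5, beside 2295 of all 19490, and limma on reads recovered from the values (voom) called 0 as well. In shTet2 against shScr, 1 of 5 was called and was higher, beside 0.39% of all genes (0.221% higher and 0.169% lower). There 2 of 5 passed unadjusted, beside 2257 of all 19490. In shTet2 against shTet1, 0 of 5 were called by either form of limma, beside 4.24% of all genes (2.88% higher and 1.36% lower), and 1 of 5 passed unadjusted, beside 3057 of all. In none of the comparisons did the 5 libraries of a group lie clear of the 5 of the other for any member, which happened for 2.62%, 2.7% and 6.04% of all genes. Both comparisons with shScr share its 5 libraries.

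**Figure D2:**
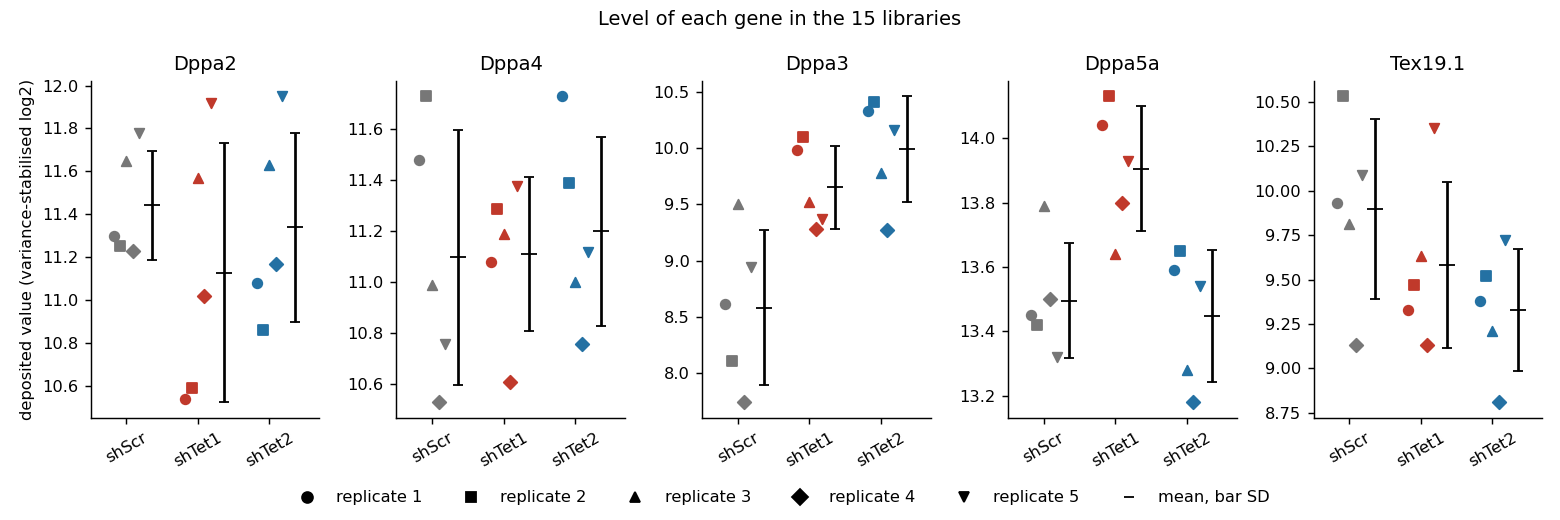
Variance-stabilised log2 value (vertical axes, 1 scale per gene) of each gene in each library by group; marker shapes give the replicate number, and the bar beside each group is the mean with its SD (n = 5). The groups overlap for every gene, and Dppa3 shows 4 of 5 shScr libraries below all shTet1 and shTet2 libraries.

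The question for Dppa2 and Dppa4, which act as a pair in chromatin, was whether loss of either enzyme moved them. Dppa2 stood at 11.30, 11.25, 11.65, 11.23 and 11.78 in replicates 1 to 5 of shScr. In shTet1 the same replicates had 10.54, 10.59, 11.57, 11.02 and 11.92, and in shTet2 they had 11.08, 10.86, 11.63, 11.17 and 11.95. Replicates 3 and 5 were the high ones in every group, replicates 1 and 2 of shTet1 were the lowest, and the groups overlapped. The difference from shScr was −0.31 in shTet1 (SE 0.25, 95% confidence interval −0.84 to 0.21, limma adjusted p = 0.692) and −0.10 in shTet2 (−0.63 to 0.42, adjusted p = 0.933). Between the knockdowns it was 0.21 (−0.31 to 0.73, adjusted p = 0.788), with shTet2 above shTet1 in 5 of 5 replicate numbers. Within replicates 1 and 2 the shTet1 difference was −0.71, and within replicates 3 to 5 it was −0.05, though the difference between these did not pass the test (interaction 0.66, SE 0.36, limma adjusted p = 0.633).

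Dppa4 in shScr stood at 11.48, 11.73, 10.99, 10.53 and 10.76 in replicates 1 to 5. The shTet1 libraries had 11.08, 11.29, 11.19, 10.61 and 11.38, and the shTet2 libraries had 11.73, 11.39, 11.00, 10.76 and 11.12. Replicate 4 was the lowest in each group, and replicates 1 and 2 were the highest in shScr and shTet2. The groups overlapped almost wholly, with a difference from shScr of 0.01 in shTet1 (95% confidence interval −0.45 to 0.48, limma adjusted p = 0.992) and of 0.10 in shTet2 (−0.37 to 0.57, adjusted p = 0.921). The shTet2 libraries differed from the shTet1 libraries by 0.09 (−0.38 to 0.56, adjusted p = 0.922). Each of these signs turned under at least 1 alternative, so no direction is given for Dppa4. Within replicates 1 and 2 Dppa4 differed between shTet1 and shScr by −0.42, and within replicates 3 to 5 by 0.30 (interaction 0.72, SE 0.31, limma adjusted p = 0.597). With the reads of Gm5501 added to Dppa4 the difference in shTet1 was 0.00.

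Although Dppa2 and Dppa4 are neighbours and partners, their values were hardly correlated across libraries (Pearson r = −0.0976 over 15 libraries that share depth and replicate number). Dppa2 averaged 10.94 ± 0.33 in the 6 libraries of replicates 1 and 2 and 11.55 ± 0.33 in the 9 of replicates 3 to 5, over all groups (SD). Dppa4 went the other way, with 11.45 ± 0.25 and 10.93 ± 0.28. The r over all libraries therefore mixes sets of replicates whose means differed in opposite directions, and no r was computed within a set. Within each set the genes shared their low libraries. Replicate 4 was the lowest of replicates 3 to 5 for both genes in every group. Among replicates 1 and 2, the shTet1 libraries were the lowest for both. Of the 9561 genes with a mean above 7.5, 95.8% had a smaller SD than Dppa2 within shTet1 (0.60), and 90.3% a smaller SD than Dppa4 within shScr (0.50). The genes most like Dppa2 over the 15 libraries were Hells (r = 0.964), which encodes a chromatin remodeller needed for DNA methylation, Ehf (0.939) and Dnttip2 (0.930). Those most like Dppa4 were Sec61b (r = 0.934), Eif3m (0.934) and Actr8 (0.925). Morc1, a germline chromatin gene 111514 bases from Dppa2, differed from shScr by −0.26 in shTet1 (limma adjusted p = 0.536) and by −0.01 in shTet2 (adjusted p = 0.990).

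**Figure D3:**
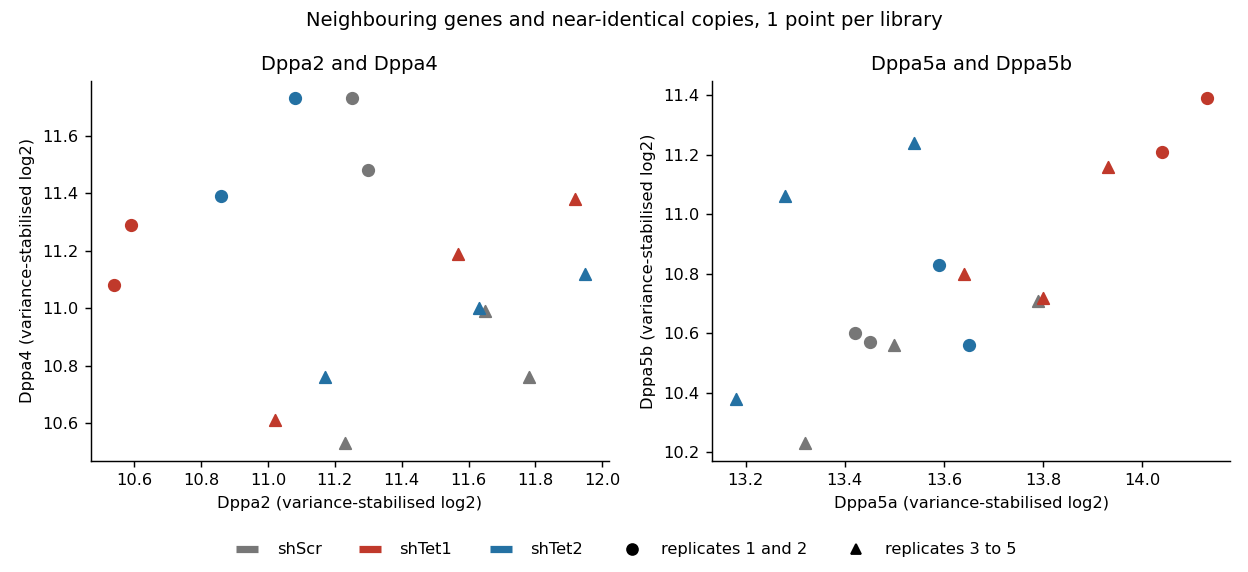
Variance-stabilised log2 values of Dppa4 against Dppa2 (left) and of Dppa5b against Dppa5a (right), 1 point per library, coloured by group, with circles for replicates 1 and 2 and triangles for replicates 3 to 5. On the left the circles sit to the upper left and the triangles to the lower right, and on the right the circles of shTet1 are the highest in Dppa5a.

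Dppa3 was the member that changed in shTet2. In shScr its values were 8.61, 8.11, 9.50, 7.74 and 8.94 in replicates 1 to 5. In shTet2 they were 10.33, 10.41, 9.78, 9.27 and 10.16. Every shTet2 library was above the shScr library of the same number, and the groups overlapped only because shScr replicate 3 (9.50) lay above shTet2 replicate 4 (9.27). The means were 8.58 ± 0.69 in shScr and 9.99 ± 0.47 in shTet2 (SD, n = 5), a difference of 1.41 (SE 0.29, 95% confidence interval 0.81 to 2.01, limma adjusted p = 0.0372). In normalised reads the mean rose from 382 ± 200 to 1020 ± 308, or 2.67-fold. The two-sided exact permutation test gave p = 0.0159, where 0.00794 is the smallest that 5 against 5 libraries allow, unadjusted for the 15 such tests made on the members. Within replicates 1 and 2 the difference was 2.01 and within replicates 3 to 5 it was 1.01 (interaction −1.001, SE 0.51, limma adjusted p = 0.878).

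The call for Dppa3 in shTet2 was close to the threshold and depended on single libraries, while its difference stayed at or above 1.20 in all alternatives. Its adjusted p rose above the threshold without shScr replicate 1 (0.0863), 2 (0.0954), 4 (0.0623) or 5 (0.0532), without shTet1 replicate 3 (0.0516), and without shTet2 replicate 1 (0.117), 2 (0.129), 3 (0.0510) or 5 (0.0585). It did so too without the 4 libraries rich in receptor reads (difference 1.38, adjusted p = 0.0819), and with those reads as a term in the fit it was 0.00710. The summed level of 7 primitive endoderm markers moved with the same comparison. It went from 624 to 986 normalised reads in shScr to 186 to 475 in shTet2. That of the 8 ESC markers went from 74716 to 80726 down to 66097 to 73408. By single gene, all 7 primitive endoderm markers were lower (median difference −0.69). Of the 8 ESC markers, 4 were higher and 4 lower (median difference −0.03). None of these markers was at 0 throughout a group. In the fit by group alone and by voom, 0 of the 7 and 0 of the 8 were called. Unadjusted, 5 and 1 had a limma p under 0.05. A fit with replicate number as a block called 3 of the 7 and 0 of the 8, though the numbers were not taken to pair these groups. The part of these markers in the result was not tested.

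**Figure D4:**
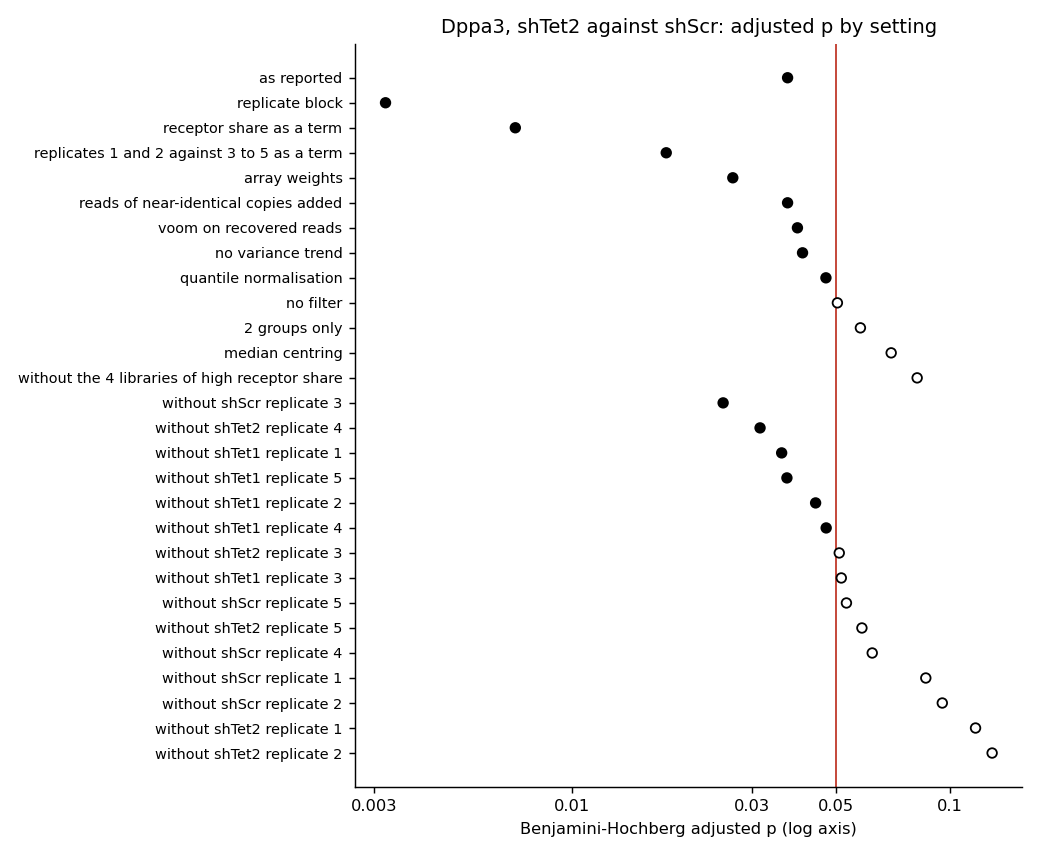
Benjamini-Hochberg adjusted p of Dppa3 in shTet2 against shScr (horizontal log axis) as reported, under other settings and with each library left out; filled points pass the threshold of 0.05 (red line). The values run from 0.00322 with a replicate block to 0.129 without shTet2 replicate 2.

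In shTet1 the Dppa3 values were 9.98, 10.10, 9.52, 9.28 and 9.37 in replicates 1 to 5. Replicates 1 and 2 were the highest, 4 of the 5 shScr libraries lay below all of shTet1, and shScr replicate 3 lay among them. The mean was 9.65 ± 0.37, a difference from shScr of 1.07 (SE 0.29, 95% confidence interval 0.47 to 1.67, limma adjusted p = 0.126, exact permutation p = 0.0238), or 2.06-fold in normalised reads. Samples of these groups with the same replicate number deviated together. With replicate number as a block, in a fit of all 15 libraries that included shTet2, the adjusted p by limma was 0.0164. Under that block 1 of the 5 members was called, beside 4.8% of all genes. Within replicates 1 and 2 the difference was 1.68 and within replicates 3 to 5 it was 0.66 (interaction −1.01, SE 0.51, limma adjusted p = 0.617).

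Between the knockdowns Dppa3 differed by 0.34 (95% confidence interval −0.26 to 0.94, limma adjusted p = 0.665), an interval that leaves the direction unsettled. Within shScr, Dppa3 varied more than most genes, and 97.7% of 9561 genes had a smaller SD there. The genes most like it over the 15 libraries were Prps1 (r = 0.927), which encodes an enzyme of nucleotide synthesis, Rfxap (0.897) and Tmem41a (0.889). Of its neighbours, Gdf3, a TGF-beta family ligand, was close to its shScr level in shTet1 (−0.04, with an interval of −0.32 to 0.24) and likewise in shTet2 (−0.0049, −0.28 to 0.28). Nanog, a core pluripotency factor, differed by 0.22 (limma adjusted p = 0.801) and −0.19 (adjusted p = 0.843). Uhrf1, whose protein Dppa3 binds, differed by 0.14 (adjusted p = 0.818) and −0.02 (adjusted p = 0.982).

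**Figure D5:**
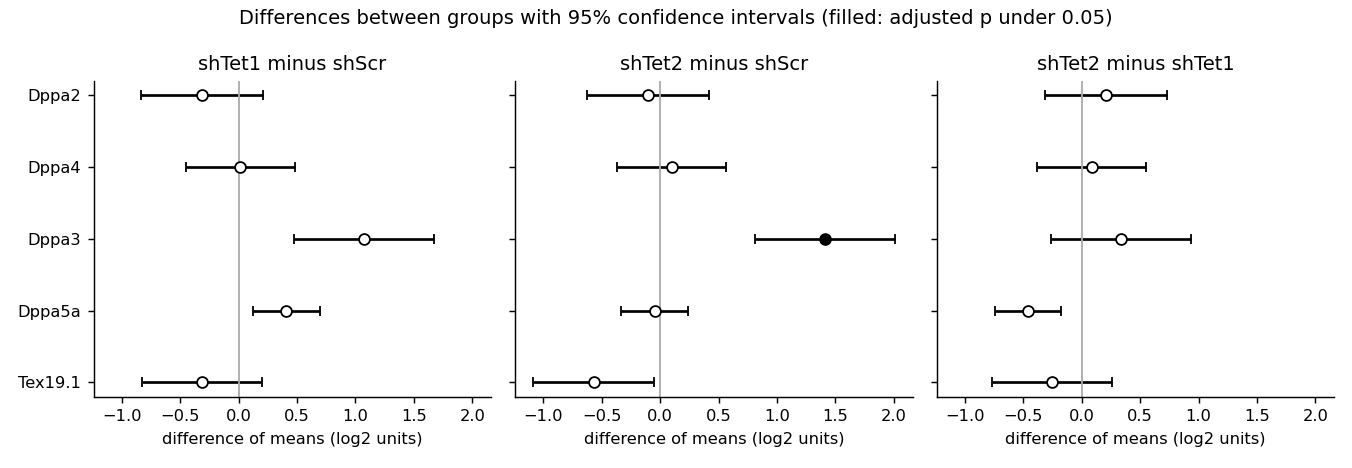
Difference of group means in log2 units (horizontal axis) with the 95% confidence interval from limma for each gene in the 3 comparisons; a filled point has an adjusted p under 0.05. The interval of Dppa3 lies above 0 in both comparisons with shScr, that of Dppa5a above 0 in shTet1 and below 0 in shTet2 against shTet1, and that of Tex19.1 below 0 in shTet2.

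Dppa5a, the most abundant member, was highest in shTet1. Its shScr values were 13.45, 13.42, 13.79, 13.50 and 13.32 in replicates 1 to 5, against 14.04, 14.13, 13.64, 13.80 and 13.93 in shTet1. The shTet2 libraries had 13.59, 13.65, 13.28, 13.18 and 13.54. Replicate 3 of shScr lay among the shTet1 libraries, replicate 2 of shTet2 just above the lowest of shTet1, and the other libraries of those groups lay below all shTet1 libraries. The difference of shTet1 from shScr was 0.41 (SE 0.14, 95% confidence interval 0.12 to 0.70, limma adjusted p = 0.217, exact permutation p = 0.0159), or 1.33-fold in normalised reads. In shTet2 against shScr it was −0.05 (−0.33 to 0.24, adjusted p = 0.947), a value whose sign turned under other scalings.

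The direct comparison of shTet2 with shTet1 gave −0.46 for Dppa5a (SE 0.14, 95% confidence interval −0.74 to −0.17, limma adjusted p = 0.0669, exact permutation p = 0.0159), with shTet2 lower in 5 of 5 replicate numbers. Numbers paired the samples here as well, and with the replicate block the adjusted p by limma was 0.0207. Under that block 1 of the 5 members was called, beside 11.2% of all genes. The difference was −0.47 within replicates 1 and 2 and −0.45 within replicates 3 to 5, so both sets of replicates gave a like size. In the same comparison the summed level of the 8 ESC markers changed without overlap. It went from 78351 to 86816 normalised reads in shTet1 to 66097 to 73408 in shTet2. That of 7 primed and germ layer markers went from 1419 to 2057 up to 2217 to 2945, also without overlap. By single gene, 6 of the 8 ESC markers were lower and 2 higher (median difference −0.24). Of the 7 primed and germ layer markers, 5 were higher and 2 lower (median difference 0.14), and the largest difference was that of Otx2 (1.01). None of these markers was at 0 throughout a group, and their part in the differences of the members was not tested. The genes most like Dppa5a were Cep78 (r = 0.905), Mipep (0.892) and Abcb10 (0.881), each over 15 libraries.

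Its near-copy Dppa5b stood at 10.57, 10.60, 10.71, 10.56 and 10.23 in shScr and at 11.21, 11.39, 10.80, 10.72 and 11.16 in shTet1. In shTet2 Dppa5b had 10.83, 10.56, 11.06, 10.38 and 11.24. All shTet1 libraries lay above all shScr libraries, by a gap no wider than 10.71 to 10.72, and shTet2 overlapped both. These 2 groups did not overlap for 2.62% of all genes tested. The difference in shTet1 was 0.52 (SE 0.17, limma adjusted p = 0.205, exact permutation p = 0.00794, the smallest possible and unadjusted). In shTet2 against shScr it was 0.28 (limma adjusted p = 0.571). With the reads of both genes joined, the values for Dppa5a became 0.42 in shTet1 against shScr (limma adjusted p = 0.196) and −0.43 in shTet2 against shTet1 (adjusted p = 0.0914). The shares that reads of either gene lent to the other cannot be told apart from these totals.

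Tex19.1 was lowest in shTet2. Its shScr values were 9.93, 10.53, 9.81, 9.13 and 10.09 in replicates 1 to 5, and its shTet2 values 9.38, 9.52, 9.21, 8.81 and 9.72. In shTet1 it stood at 9.33, 9.47, 9.63, 9.13 and 10.35. All 5 shTet2 libraries were below the shScr library of the same number, replicate 4 was the lowest in every group, and the groups overlapped through shScr replicate 4. The difference of shTet2 from shScr was −0.57 (SE 0.25, 95% confidence interval −1.08 to −0.05, limma adjusted p = 0.375, exact permutation p = 0.0794), with normalised reads at 64.4% of shScr. In shTet1 it was −0.31 (−0.83 to 0.20, adjusted p = 0.686), and between the knockdowns −0.25 (−0.77 to 0.26, adjusted p = 0.722). Within replicates 1 and 2 the shTet1 difference was −0.83 and within replicates 3 to 5 it was 0.03 (interaction 0.86, SE 0.48, limma adjusted p = 0.641).

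The 4 libraries rich in receptor reads had a lower mean than the other 11 for Tex19.1 (9.18 against 9.76), Dppa3 (8.95 against 9.57) and Dppa4 (10.77 against 11.27). Without those 4 libraries the Tex19.1 difference from shScr was −0.63 in shTet2 and −0.37 in shTet1, and with the receptor share as a term it was −0.48 and −0.28, again without a call. The genes most like Tex19.1 over the 15 libraries were Mcm5 (r = 0.951), a subunit of the replicative helicase, Mrpl21 (0.948) and Pou5f1 (0.947), which encodes the core pluripotency factor OCT4. Its paralogue Tex19.2 was close to the table minimum, with a mean of 5.37 (SD 0.26) in the shScr libraries, 5.16 (SD 0.28) in shTet1 and 5.41 (SD 0.22) in shTet2. Ubr2, whose protein Tex19.1 binds, differed from shScr by −0.09 in shTet1 (limma adjusted p = 0.911) and −0.12 in shTet2 (adjusted p = 0.880).

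Genes around the members were read from lists, each described by its calls and its median difference, beside medians over all genes of 0.01, 0.04 and 0.01 in the 3 comparisons. Of 16 partners and regulators of the members, among them DNA methyltransferases and their cofactors, Tet1 was the 1 called in shTet1 (−1.84) and Tet2 the 1 called in shTet2 (−1.90), both against shScr. The direct comparison called the same pair, Tet1 at 1.66 and Tet2 at −1.63, and 3 genes with the replicate block. Of 18 relatives and neighbours found of 23, 12 passed the filter and 0 were called by limma or by voom in any comparison, with medians of −0.05, −0.01 and −0.10. At an unadjusted p under 0.05 they numbered 2, 1 and 0, and the replicate block called 0 in shTet1 against shScr and 1 in shTet2 against shTet1.

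Dppa2 and Dppa4 are known as activators of genes of the 2-cell embryo, and 16 of 29 listed 2-cell-like genes were found under these symbols. All 16 were lower in shTet1 than in shScr (median −1.01), where limma and voom called 0, an unadjusted p under 0.05 was reached by 14, and the replicate block called 13. All 16 were higher in shTet2 than in shScr (median 0.97), and Tdpoz3 was the 1 called (1.32, limma adjusted p = 0.0485), beside 3 by voom and 15 at an unadjusted p under 0.05. In shTet2 against shTet1 all 16 were called higher, with a median of 2.06, led by Tdpoz3 (2.38), Zscan4b (2.27) and Zscan4d (2.27). Dppa2 and Dppa4 differed by 0.21 and 0.09 in that comparison and were not called. Several of these genes are near-identical copies of each other and their reads cannot be told apart.

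Of 27 germline genes that DNA methylation is known to silence, 1 was called higher in shTet2 against shScr, Piwil2 (0.72, limma adjusted p = 0.0372), a gene of the piRNA pathway. In shTet2 against shTet1, 5 were called higher, led by Piwil2 (1.18), Brdt (0.93), a testis bromodomain gene, and Tdrkh (0.85), another piRNA pathway gene, and 12 were called with the replicate block. In shTet1 against shScr, limma and voom called 0 of the 27, with 10 at an unadjusted p under 0.05 and 6 called with the replicate block, and the medians over the 3 comparisons were −0.19, 0.19 and 0.43. Of 23 retroelement defence genes found of 24, Piwil2, which is on both lists, was the 1 called in shTet2 against shScr and in shTet2 against shTet1, where the replicate block called 7. In shTet1 against shScr, limma and voom called 0 of the 23, with 4 at an unadjusted p under 0.05 and 4 called with the replicate block. The medians of that list were 0.00, 0.01 and 0.05. Tex19.1, which also restrains retrotransposons, had a negative difference in each of the 3 comparisons, without a call in the fit by group alone.

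Of 17 naive and core pluripotency factors found of 18, 0 were called by limma or by voom in the comparisons with shScr (each had 2 below an unadjusted p of 0.05, and 1 with the replicate block in shTet1), with medians of 0.08 and −0.19. In shTet2 against shTet1 the median was −0.24, and Fgf4, a growth factor that drives exit from pluripotency, was the 1 called (−0.59, limma adjusted p = 0.0126), beside 3 with the replicate block. Dppa5a went in the same direction as Fgf4 there (−0.46). Among markers of other states, the trophoblast marker Eomes (−0.94) and the primed and germ layer marker Otx2 (1.01) were called in shTet2 against shTet1. In the fit by group alone and by voom, 0 of 8 fibroblast and 0 of 7 primitive endoderm markers were called in any comparison. With the replicate block, 0 and 0 were called in shTet1 against shScr, and 2 and 2 in shTet2 against shTet1. In shTet2 against shScr, which the numbers were not taken to pair, that block called 2 and 3. At an unadjusted p under 0.05 there were at most 2 of the fibroblast and 5 of the primitive endoderm markers, the latter in shTet2 against shScr.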

How the data were processed

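RNA-seq of 15 libraries (shScr, shTet1 and shTet2, 5 each) was used as a gene table. The authors mapped single-end reads to mm9 with TopHat2 2.0.9 after Trim Galore 0.3.3, allowing 1 location per read, counted them in genes and deposited DESeq2 variance-stabilised log2 values; a companion table of repeats was not used. No label ties replicates to separate cultures, so p-values measure the spread between these samples. Whole reads were recovered by undoing the transformation (100% of values up to 1000 reads whole within 0.1) and divided by size factors for normalised reads. Values above the table minimum in at least 5 libraries (19490 genes) were fitted with limma 3.58.1 (R 4.3.3; group only, eBayes with trend), checked on simulated data. Exact permutation tests (scipy 1.17.1) were two-sided.

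Deviations of same-numbered samples correlated at 0.374 to 0.657 (shTet1 with shScr) and 0.330 to 0.731 (shTet2 with shTet1), so the numbers were taken to pair these groups. For shTet2 with shScr they correlated at 0.400 to 0.769 except in replicate 3 (0.00789). Because of that replicate, the numbers were not taken to pair shTet2 with shScr. Members and lists were chosen with earlier results of these data known. Named genes were all members, up to 3 called genes per list with the greatest differences, and 8 set targets, partners and neighbours. The 3 genes most correlated with each member were named too, with predicted genes (Gm numbers and names ending in Rik) skipped. Dppa5b and Gm5501 were added as copies. Alternatives covered filter, trend, scaling, weights, covariates, voom and left-out libraries.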

Additional observations from a re-analysis of the deposited data

How the results depend on the processing

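Of the 15 differences of the members, Dppa2, Dppa3 and Tex19.1 kept their direction in all 3 comparisons under the 12 settings that changed the fit, and Dppa5a kept it in shTet1 against shScr and in shTet2 against shTet1. The Dppa3 call in shTet2 against shScr, and with it the count of members called (0 instead of 1), was lost without the filter (1.41, adjusted p = 0.0504), with 2 groups only (1.41, 0.0580), with median centring (1.30, 0.0699), and without the 4 libraries rich in receptor reads (1.38, 0.0819), the last chosen after seeing the data; the cause was not tested. Median centring moved the median of all genes from 0.04 to −0.07 in that comparison. In shTet1 against shScr Dppa3 was called with the receptor share as a term (1.11, adjusted p = 0.0406; 1 member, beside 97 of all genes), and Dppa5a in shTet2 against shTet1 with replicates 1 and 2 against 3 to 5 as a term (−0.46, 0.0338; 1 member, beside 1263 of all genes). Dppa4 turned sign under median centring (−0.0385 in shTet1, −0.0062 in shTet2), and Dppa5a in shTet2 against shScr under quantile normalisation (0.0510), voom (0.0318) and without the 4 libraries (0.0196).

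With the replicate block Dppa3 (1.07) in shTet1 and Dppa5a (−0.46) in shTet2 against shTet1 were called (1 member each). The numbers were not taken to pair shTet2 with shScr, as the correlation of their deviations was 0.00789 in replicate 3, against 0.400 to 0.769 in the others. There the replicate block called 2 members, Dppa3 (1.41) and Tex19.1 (−0.57, limma adjusted p = 0.0415), and 840 genes instead of 76. It changed no other call of a member.

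Over the 15 fits that leave out 1 library, the Dppa3 difference in shTet2 ran from 1.20 to 1.64 and the members called from 0 to 1. Against shScr, Dppa2 in shTet2 ran from −0.26 to 0.0161, Dppa5a in shTet2 from −0.10 to 0.0255, and Dppa4 from −0.13 to 0.17 in shTet1 and −0.0408 to 0.26 in shTet2; Dppa4 in shTet2 against shTet1 ran from −0.0439 to 0.20. Genes called ran from 1 to 171 in shTet1 against shScr, 10 to 99 in shTet2 against shScr and 512 to 902 between the knockdowns. Under the 12 other settings they ran from 1 to 935 (14 as reported), 13 to 840 (76) and 345 to 2178 (827), lowest without the 4 libraries and highest with the replicate block. Each member had at least 160 reads in every library. Adding the reads of Gm5501 to Dppa4 and of Dppa5b to Dppa5a changed no call of a member. That setting added no reads to Dppa2, Dppa3 or Tex19.1, so it could not move their differences and does not test the Dppa3 call.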
